A study of Mus musculus with 13 samples.

Results

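The last 202 nucleotides (nt) of the Mbnl1 intron that precedes a 54-nt exon were examined, as probed inside living mouse fibroblasts. The members are all nucleotides of the sequenced 459-nt amplicon that lie upstream of the exon, chr3:60614481-60614682 on the plus strand of mm10. Of these 202, 175 had a value in all 4 profiles used, and 25 at the 5′ end (nt 1 to 25) had none in any profile. G67 and G79 were measured in only some of the induced profiles. In GENCODE M21 the stretch is the 3′ end of an intron of 1162 nt, and the exon is exon 3, 4, 5 or 6 in 5 annotated Mbnl1 transcripts.

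The series has 13 samples, all from mouse embryonic fibroblasts in which both genes are knocked out (Mbnl1-/-/Mbnl2-/-), controls included. In the induced group, MBNL1 expression was switched on by doxycycline at 1 ug/mL for 18 to 20 hours; the uninduced group received none. Both were then exposed to 100 mM NAI for 12 minutes. Profiles of 3 induced samples and 1 uninduced sample were used. The second uninduced NAI sample, the solvent (DMSO) samples and those of other RNAs were not analysed here. The inducible construct, the knockout alleles and the number of clones are not given in these sources. Nor do the labels say whether numbered sets are separate cultures, so every p-value below rests on a spread among induced profiles that may be technical. The profiles cover single RNAs and hold no marker genes, so the labelled cell type could not be checked.

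NAI acylates the ribose of nucleotides that are free to move, and SHAPE-MaP reads the adducts as mutations made by reverse transcriptase. High reactivity marks a flexible nucleotide, and low reactivity one held by pairing, stacking or a bound protein. At the 3′ end of an intron the spliceosome reads a branch-point adenosine, a pyrimidine tract bound by U2AF, and the AG at the splice site. MBNL proteins are splicing regulators that bind YGCY (either UGCU or its variant UGCC, or else CGCU or its variant CGCC), and MBNL1 is known to regulate inclusion of this exon in its own transcript.

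The sequence is shown whole because all of the sites described below lie in it. The first line has its 12 YGCY sites in capitals, and the next has the last 50 nt with the nearest branch-point candidate and the splice-site AG in capitals:
upstream intron, nt 1 to 202: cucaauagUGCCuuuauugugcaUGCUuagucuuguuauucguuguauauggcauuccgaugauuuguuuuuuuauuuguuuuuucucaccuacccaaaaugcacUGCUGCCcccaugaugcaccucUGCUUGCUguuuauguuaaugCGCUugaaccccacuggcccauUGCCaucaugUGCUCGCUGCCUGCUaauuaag
last 50 nt, nt 153 to 202: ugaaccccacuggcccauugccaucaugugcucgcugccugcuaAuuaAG

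The intron end was rich in YGCY and had few AG dinucleotides. Searched on the transcript strand, it held 12 YGCY sites, 5 of them starting within 50 nt of the exon. Of 182182 introns of protein-coding transcripts in GENCODE M21 that are at least as long, 88.7% had a YGCY site in their last 202 nt, with a median of 2 sites, and 0.0714% had 12 or more. In the last 50 nt, 0.146% had 5 or more. The nearest AG upstream of the splice-site AG was at nt 29 to 30, 174 to 173 nt before the exon. The AG-free stretch between them, known as the AG exclusion zone, was 170 nt long, against a median of 30 nt in those introns; 0.172% had one of 170 nt or more. Pyrimidines made up 64.4% of the 202 nt, a share reached by 2.83% of those introns. In the last 50 nt the share was 60%, equal to the introns' median, and in the last 20 nt it was 60%, where their median was 70%.

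The upstream intron was less reactive than the downstream intron in all 4 profiles. Its mean reactivity was 0.392 in the uninduced profile and 0.377, 0.383 and 0.346 in induced profiles 1 to 3 (0.369 ± 0.0194, SD, n = 3). The downstream intron had 0.569 uninduced and 0.624, 0.623 and 0.614 induced, and the exon 0.319 uninduced and 0.306, 0.295 and 0.316 induced. These values are scores in the unit the authors deposited. The induced intron mean was below the uninduced one in each profile, but the single nucleotide A63 carried much of that. Relative to each profile's own mean, the intron's change was -0.0932 with A63 and -0.0329 without it. With 3 profiles against 1, an exact permutation test cannot give a p below 0.25, so no test of such means was made.

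The pattern along the intron was shared by all profiles, with the uninduced one somewhat apart. Over the 175 nt, Pearson's r was 0.829 to 0.875 between induced profiles and 0.635 to 0.646 between each induced profile and the uninduced profile, or 0.742 to 0.812 without nt 63. These correlations describe neighbouring nucleotides of 1 RNA, which are not independent. Nucleotides below 0.4 in all 4 profiles made up 49.7% of the intron (87 of 175) and 45.2% of the amplicon. Those at 0.85 or more in all 4 made up 5.71% of the intron (10 of 175) and 9.58% of the amplicon. The cutoffs are those in common use for SHAPE. Among induced profiles, nucleotides had a median SD of 0.101, far above the deposited standard errors (medians of 0.00104 to 0.00143), so the spread between profiles was used as the error.

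**Figure D1:**
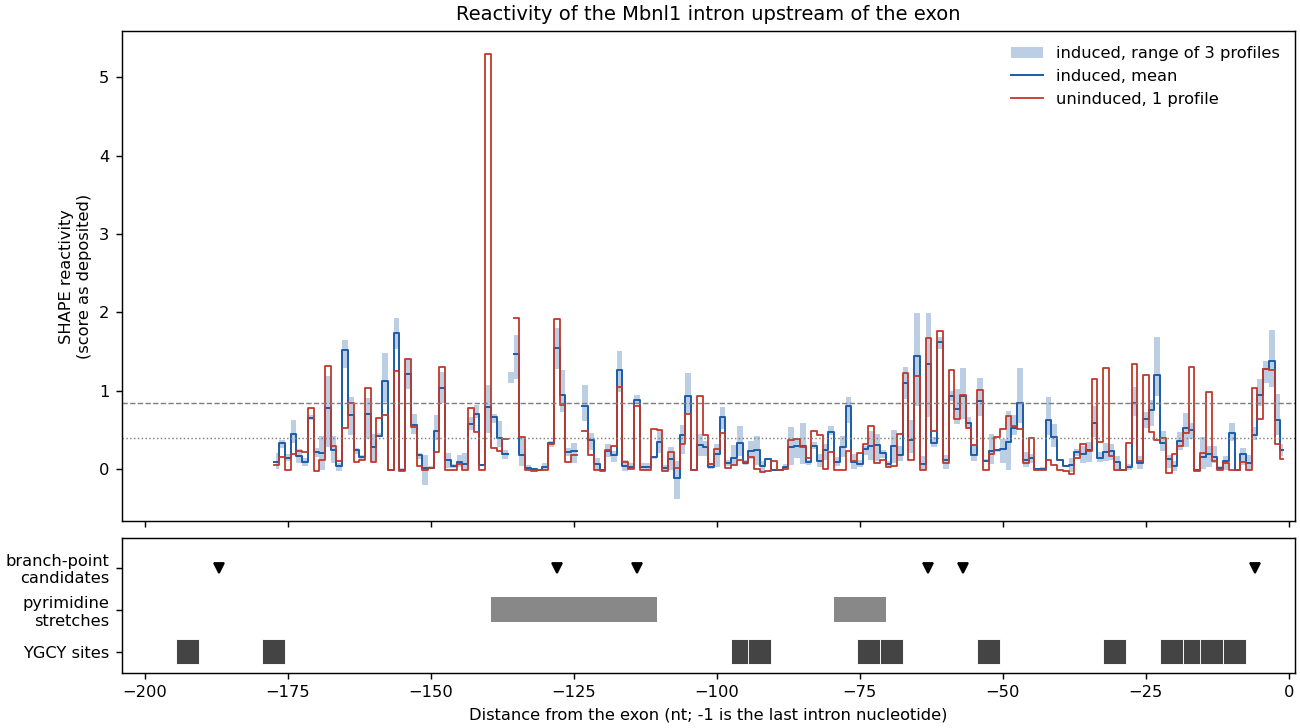
SHAPE reactivity (score as deposited) of each intron nucleotide against its distance from the exon in nt, for the uninduced profile (red) and the induced profiles (blue line, mean; blue shade, range of 3), with dotted and dashed lines at 0.4 and 0.85. The lower panel places the YGCY sites, the pyrimidine stretches and the branch-point candidates. One uninduced value, 5.30 at A63, stands above all others, and 16 nt in 3 runs stay below 0.4 in every profile.

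The 10 nucleotides that stayed at 0.85 or more in every profile were A47, A49, U68, A75, C86, G136, G142, U144, U199 and A200. None of them lay in a YGCY site. They held 4 of 31 measured adenosines but 1 of 46 cytidines. G142 (60614622) had 1.77 uninduced and 1.66, 1.53 and 1.69 induced. A47 (60614527), with 1.25 uninduced and 1.53, 1.93 and 1.75 induced, had the highest induced mean of the intron (1.74 ± 0.201, SD, n = 3). Its neighbours U46 and U48 were near 0, between -0.0252 and 0.0180 in the 4 profiles, so high and near-zero values stood side by side. By induced mean the 10 highest nucleotides were A47, G142, A75, A38, U68, U138, A200, A140, U199 and C86. U138 had 1.19 uninduced and 1.99, 1.51 and 0.805 induced.

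Runs of at least 5 nt below 0.4 in all 4 profiles numbered 3, and each lay in a different kind of sequence. They are printed with YGCY nucleotides in capitals:
nt 70 to 74: uuuuu
nt 111 to 115: CCccc
nt 163 to 168: uggccc
The cytidine run was the lowest, with means of 0.00638 uninduced and 0.0359 ± 0.00701 (SD, n = 3) induced. The uridine run lay inside the pyrimidine stretch, with means of 0.0529 and 0.0714 ± 0.00983. The third run had 0.0996 and 0.147 ± 0.0120. With cutoffs of 0.3 and 1.0, 1 run and 7 high nucleotides were left.

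Pyrimidine stretches were defined as runs of at least 8 C or U, in which 1 A or G was allowed between sides of 3 or more. By this rule 5 stretches were found. The first 4 overlap and form a block of 29 nt (nt 64 to 92, 60614544 to 60614572), 139 to 111 nt before the exon, and the fifth is separate. Each is printed with its A or G in capitals:
nt 64 to 74: uuuGuuuuuuu
nt 68 to 78: uuuuuuuAuuu
nt 76 to 88: uuuGuuuuuucuc
nt 80 to 92: uuuuuucucAccu
nt 124 to 132: ccucuGcuu
The block was not uniformly open. Its mean over 27 measured nt was 0.376 uninduced and 0.365, 0.426 and 0.354 induced, so the uninduced value lay within the induced ones. Over all 13 U in its runs of 4 or more, the mean was 0.292 uninduced and 0.242, 0.336 and 0.272 induced. The 7 inner U of these runs, from the third to the last but 1, were lower, at 0.0224 uninduced and 0.0577, 0.0375 and 0.0421 induced. U84 was the highest of the inner U, with 0.246 uninduced and 0.325, 0.230 and 0.151 induced. By contrast U68 at the start of a run had 1.93 uninduced and 1.15, 1.55 and 1.72 induced. C86, next to the end of a run, had 1.05 uninduced and 0.986, 1.50 and 1.30 induced. The separate stretch at nt 124 to 132, which runs into 2 YGCY sites, had 0.177 uninduced and 0.279, 0.333 and 0.188 induced, and its induced values were all above the uninduced one. U126 within it had 0.234 uninduced and 0.898, 0.927 and 0.586 induced. That rise did not pass the test (adjusted p = 0.398 in limma, with Benjamini-Hochberg adjustment across the 407 measured nt).

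Candidate branch points were taken as the adenosine of CUNAC or its variant CUNAU, or else of UUNAC or its variant UUNAU, and the intron end held 6. Of the introns compared, 96.8% held at least 1 in their last 202 nt, with a median of 4, and 23.5% held 6 or more, so their number is not unusual. A match gives a candidate only. They are printed with the adenosine in capitals, from the nearest to the exon outwards; a sixth, A16, lies in the stretch without values:
A197, 6 nt before the exon: ccugcuaAuuaag
A146, 57 nt before: uauguuaAugcgc
A140, 63 nt before: gcuguuuAuguua
A89, 114 nt before: uuuucucAccuac
A75, 128 nt before: uuuuuuuAuuugu
All 5 measured candidates lay in the AG exclusion zone. That zone holds nearly all measured nucleotides of the intron, so this does not set the candidates apart. A75, at the join of the first uridine runs, had 1.92 uninduced and 1.57, 1.802 and 1.28 induced. A89 had 0.803 uninduced and 0.829, 0.878 and 0.953 induced. A140 ranged widely, with 1.67 uninduced and 1.99, 0.662 and 1.38 induced. A146 had 0.945 uninduced and 0.862, 1.29 and 0.636 induced. Uninduced values of A140 and A146 lay within the induced ones. A89 was slightly higher in all induced profiles as deposited, but within them relative to the profile mean, and A75 was lower in all of them on both scales. Over the other 26 measured adenosines of the intron the mean was 0.747 uninduced and 0.631 ± 0.0553 (SD, n = 3) induced. These hold A63, described below, without which their relative change turned from -0.337 to 0.0729. A140 and A146 lay among reactive nucleotides. The 11 nt around A140 had a mean of 0.807 uninduced and 0.752 ± 0.0565 induced, and the 11 nt around A146 had 0.657 and 0.607 ± 0.0319. Around A89 the mean of 11 nt was 0.315 and 0.293 ± 0.0106.

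A197 had the largest relative fall of the 5 measured candidates, though the test gave no call. It had 1.04 uninduced and 0.367, 0.543 and 0.392 induced. Its uninduced value thus lay above all induced ones, as at 27.5% of amplicon nucleotides relative to the profile mean. The change relative to the profile mean was -1.46 (SE 0.379), and it did not pass (adjusted p = 0.242 in limma). Here and below, relative changes are induced minus uninduced after each profile was divided by its own mean, so that 1 is the profile mean.

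Of the nucleotides between A197 and the exon, U199 and A200 stayed at 0.85 or more in every profile. U198 had 0.646 uninduced and 0.885, 0.812 and 1.16 induced. U199 had 1.28 uninduced and 1.38, 1.09 and 1.38 induced, and A200 had 1.27 uninduced and 1.77, 1.31 and 1.05 induced. The AG itself was less reactive. A201 had 0.319 uninduced and 0.963, 0.440 and 0.476 induced, and G202, the last intron nucleotide, had 0.126 uninduced and 0.248, 0.321 and 0.171 induced. Both AG nucleotides were higher in all induced profiles, but neither passed the test (adjusted p of 0.594 and 0.625 in limma). Of all amplicon nucleotides, 37.6% were likewise below all induced values in the uninduced profile, so this is common in the amplicon.

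The nucleotide-level comparison asks where MBNL1 induction changed reactivity. limma called 1 of the 175 intron nucleotides at an adjusted p under 0.05, against 0.246% of the 407 amplicon nucleotides, which is the same single nucleotide. It is A63 (60614543), just before the uridine block, with 5.30 uninduced and 1.07, 0.861 and 0.456 induced. It fell by 10.6 relative to the profile mean (SE 0.801, adjusted p = 0.00438 in limma). The call rests on 1 uninduced value and was lost without induced replicate 2 (adjusted p = 0.450 in limma), with negative values set to 0 (0.0524), on the log2 scale (0.0769) and without the variance trend (0.0562). At an unadjusted p under 0.05, limma gave 19 intron nucleotides, 13 lower and 6 higher on induction. That is 10.9% of the intron, beside 11.1% of the amplicon, of which 7.62% were lower and 3.44% higher. Of the 19, 10 lay in the last 55 nt, and 8 of those 10 were lower. That part holds 55 of the 175 measured nucleotides, and none of its 10 passed after adjustment. Whether its share differs from that of the amplicon was not tested.

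**Figure D2:**
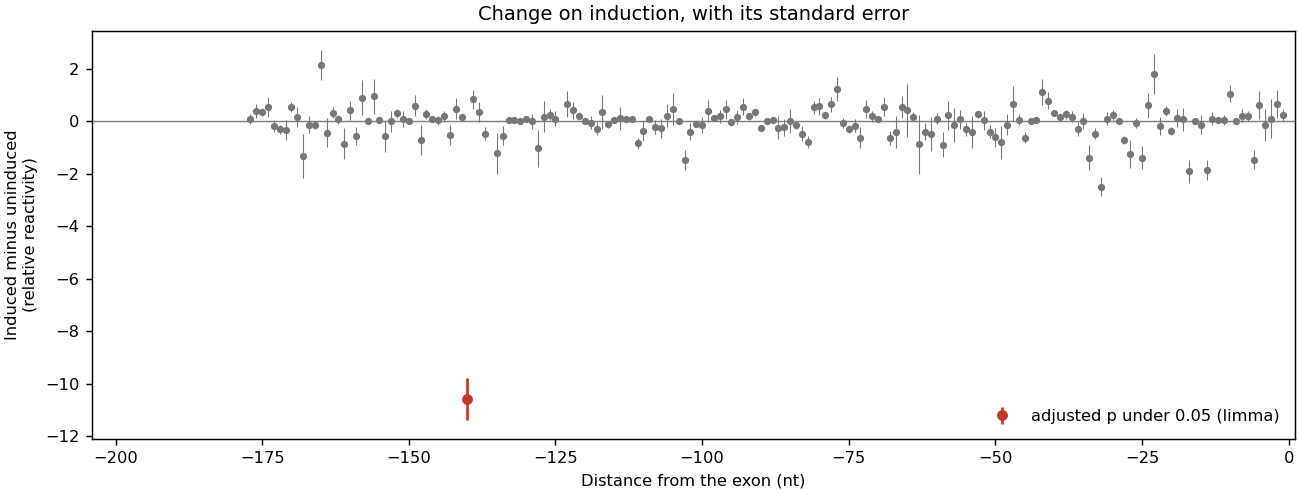
Induced minus uninduced relative reactivity (1 is a profile's mean) of each measured intron nucleotide, with the standard error from limma, against distance from the exon in nt. A63 (red) is the called nucleotide, at -10.6, and the next largest fall is U171 at -2.50.

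On the relative scale, uninduced values fell outside the induced range at 110 of 175 intron nucleotides (62.9%), beside 65.1% in the amplicon. They were above it at 45 and below it at 65, which is 25.7% and 37.1% of the intron. The amplicon's shares were 27.5% and 37.6%. The intron thus did not stand apart in these counts. Values below 0 made up 24.0% of intron nucleotides in the uninduced profile and 17.1%, 11.9% and 10.2% in the induced ones. Their part in the rises from low levels was not tested.

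By the rule that takes the largest changes outside the induced values, the falls were A63, U171, G186, G189 and A100, and the rises A38, G180, U126, A161 and G193. A100, in a run of adenosines, had 0.939 uninduced and 0.451, 0.173 and 0.313 induced (adjusted p = 0.242 in limma). Next to it A99 was near 0 in all 4 profiles, from -0.00428 to -0.00228. A38 had 0.525 uninduced and 1.60, 1.65 and 1.30 induced (adjusted p = 0.243 in limma). A161 had 0.122 uninduced and 0.918, 0.540 and 0.436 induced, and G180 had 0.377 uninduced and 1.69, 0.935 and 0.983 induced (adjusted p of 0.429 and 0.420 in limma). None of them but A63 passed the test with all profiles, and U171, G186, G189, A161, G180 and G193 lie within 42 nt of the exon.

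Of the 12 YGCY sites, 10 were measured in full, 1 at nt 24 to 27 in part, and 1 at nt 9 to 12 not at all. Relative to the profile mean, 4 were lower in every induced profile, 4 higher and 3 between. Of single amplicon nucleotides 65.1% likewise lay outside the induced values, so this count is near the background. The sites are described from the exon outwards. Sites at nt 106 and 109 share U109, and those at nt 185 and 188 share U188, so these are not independent.

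Next to the exon, 4 sites follow each other without a gap at nt 181 to 195, 22 to 8 nt before it. UGCU at nt 192 had means of 0.0400 uninduced and 0.196, 0.155 and 0.211 induced. G193 supplied most of this, with -0.00823 uninduced and 0.592, 0.358 and 0.431 induced (adjusted p = 0.308 in limma). UGCC at nt 188 went the other way, from 0.320 uninduced to 0.124, 0.161 and 0.107 induced. Its G189 had 0.987 uninduced and 0.0223, 0.272 and 0.293 induced (adjusted p = 0.173 in limma). CGCU at nt 185 had 0.490 uninduced and 0.372, 0.290 and 0.219 induced, with G186 at 1.31 uninduced and 0.381, 0.541 and 0.595 induced (adjusted p = 0.224 in limma). UGCU at nt 181 was alike in both groups, with 0.213 uninduced and 0.166, 0.242 and 0.249 induced. In the sites at nt 185, 188 and 192 the guanosine gave most of the difference, down at G186 and G189 and up at G193. These guanosines were named for their large changes outside the induced values. G182, in the site at nt 181, was also higher in every induced profile, with -0.0425 uninduced and 0.0202, 0.184 and 0.183 induced. Of amplicon nucleotides, 65.1% likewise lay outside the induced values. Of the 4 motif cytidines, C187 and C194 stayed below 0 in all 4 profiles. C183 had 0.195 uninduced and -0.0281, 0.0495 and 0.104 induced, and C190 had 0.101 uninduced and 0.0750, 0.2998 and 0.0831 induced.

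In windows of 10 nt, limma called 2 of 19 windows that start in the intron. These 2 were the only calls among the 42 windows of the amplicon (4.76%). One holds A63. The other, nt 181 to 190, fell from 0.390 uninduced to 0.225, 0.270 and 0.225 induced, a change of -0.375 (SE 0.0979, adjusted p = 0.0290 in limma). With deposited values, without induced replicate 1 and without replicate 3, only the window with A63 passed. With A63 left out of the data, no 10-nt window of the intron passed. The call at nt 181 to 190 was thus not independent of A63. Windows of 5 nt gave 6 calls in the intron, among 7 calls in the 82 windows of the amplicon (8.54%). Whether calls were more frequent in the intron was not tested. Nt 186 to 190 fell by 0.756 (adjusted p = 0.000204 in limma) and nt 191 to 195 rose by 0.271 (adjusted p = 0.0122 in limma). These 5-nt windows pool their spread over the whole amplicon and rest on the same lone uninduced profile.

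**Figure D3:**
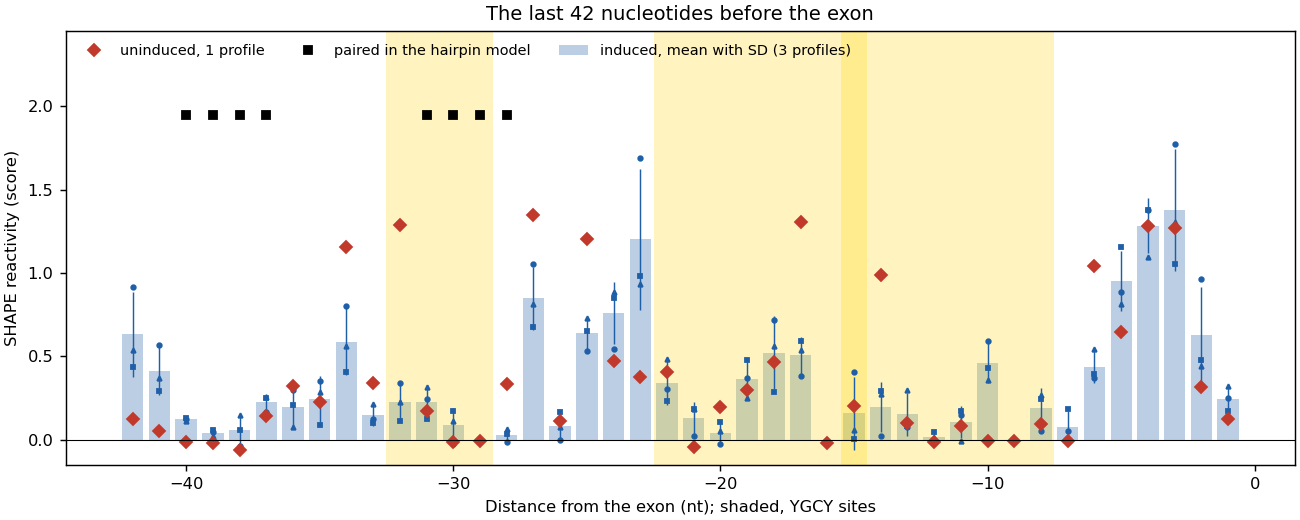
SHAPE reactivity (score) of the nucleotides from 42 nt before the exon to its edge, for the uninduced profile (red diamonds) and the induced ones (bars, mean; lines, SD; blue points, the 3 profiles). Shaded spans are YGCY sites and black squares are nucleotides paired in the modelled hairpin. U171, G186, G189 and A197 have uninduced values of 1.29, 1.31, 0.987 and 1.04, above all their induced values.

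The site at nt 171, UGCC, lies in the last stretch before this cluster, 32 to 29 nt before the exon, and had the largest fall of any site. Its mean was 0.360 uninduced and 0.137, 0.162 and 0.101 induced. U171 (60614651) gave the fall, with 1.29 uninduced and 0.339, 0.227 and 0.110 induced. Its relative change was -2.50 (SE 0.369), short of the threshold with all profiles (adjusted p = 0.0999 in limma). It passed without induced replicate 1 (0.000216) and with rank-based scores (0.00531), and had 0.450 without replicate 2. In G172, C173 and C174 the uninduced values lay within the induced ones relative to the profile mean.

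Folding with each profile as a guide placed this site in a short hairpin at nt 163 to 175 (60614643 to 60614655), of 4 pairs and a loop of 5 nt. It is printed with paired nucleotides in capitals:
nt 163 to 175: UGGCccauuGCCA
The mean probability of its 4 pairs was 0.912 with the uninduced profile and 0.993, 0.992 and 0.933 with the induced ones. These are model outputs that use the reactivities, not measurements. Without reactivities the sequence gave 0.296, and with pairs limited to a span of 100 nt induced profile 3 gave 0.0576. The 8 stem nucleotides had mean reactivities of 0.0673 uninduced and 0.0615, 0.128 and 0.103 induced. The loop had 0.667 uninduced and 0.383, 0.273 and 0.183 induced, below the uninduced value in every profile. U171 is the loop nucleotide next to the stem. A169, also in the loop, had 1.16 uninduced and 0.800, 0.560 and 0.407 induced, and A175, which closes the stem, had 0.335 uninduced and -0.0114, 0.0614 and 0.0326 induced. Neither passed alone (adjusted p of 0.398 and 0.173 in limma). In windows of 5 nt, nt 171 to 175 fell by 0.578 and were called. Such 5-nt calls pool the spread over all windows of the amplicon and rest on the lone uninduced profile. They thus treat windows of the same RNA as replicates. Nt 161 to 165 were also called and rose by 0.521, from 0.0167 uninduced to 0.323, 0.240 and 0.195 induced. The relative rise was 1.11 at A161 and 0.786 at C162, both before the hairpin. In the first 3 nt of the 5′ stem strand it was 0.301, 0.142 and 0.263 at U163, G164 and G165. Nt 166 to 170, between these windows, were not called (-0.400). Nor were the 10-nt windows over the hairpin, with -0.321 at nt 171 to 180 and 0.0604 at nt 161 to 170 (adjusted p of 0.240 and 0.820 in limma).

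The remaining sites lie farther from the exon. CGCU at nt 149, 54 nt before it, had the highest induced mean of any site, with 0.403 uninduced and 0.298, 0.391 and 0.397 induced. UGCU at nt 132 had 0.158 uninduced and 0.160, 0.276 and 0.120 induced, and UGCU at nt 128 had 0.289 uninduced and 0.198, 0.310 and 0.191 induced. Neither differed beyond the spread of the induced profiles. UGCC at nt 109 had 0.0223 uninduced and 0.139, 0.150 and 0.192 induced, and UGCU at nt 106 had 0.106 uninduced and 0.206, 0.270 and 0.113 induced. The 2 measured nucleotides of UGCU at nt 24 had 0.105 uninduced and 0.189, 0.288 and 0.169 induced. These last 3 sites were higher in every induced profile, from a low start, and in C111 and C112 of the site at nt 109 the uninduced values were below 0.

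**Figure D4:**
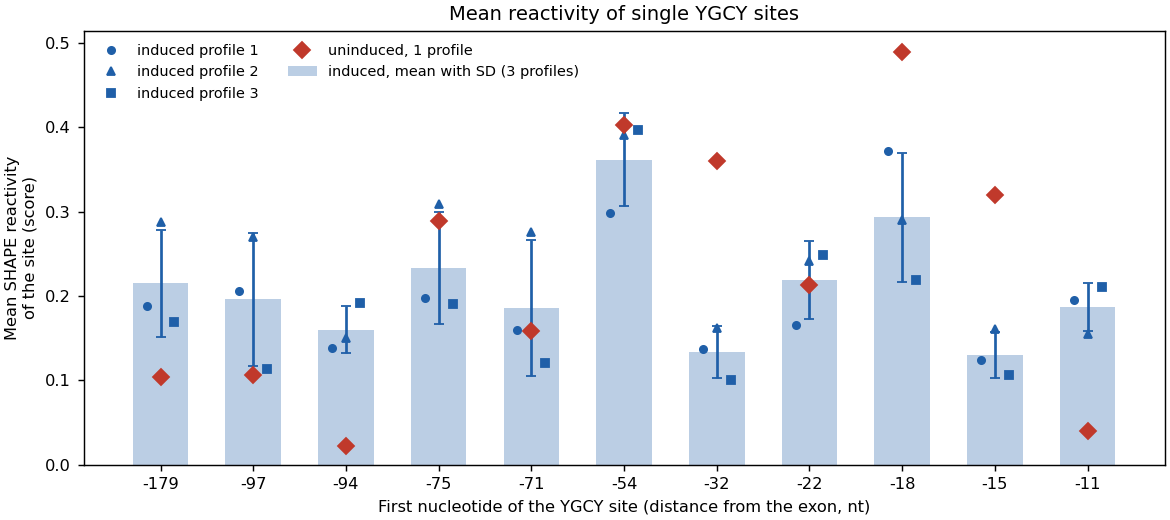
Mean SHAPE reactivity (score) of each measured YGCY site, by the distance of its first nucleotide from the exon in nt, for the uninduced profile (red diamonds) and the induced ones (blue points; bars, mean; lines, SD, n = 3). The uninduced value is above all induced ones at nt -54, -32, -18 and -15 and below them at nt -179, -97, -94 and -11.

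The sites had lower means than the nucleotides around them, which differ in base composition: YGCY holds no adenosine, the most reactive base of the intron. The part of composition in this difference was not tested. Flanks are the 10 nt on both sides, without nucleotides of any YGCY site. At 8 of 11 sites the site mean was below its flank mean in all 4 profiles. Over all 40 measured YGCY nucleotides the mean was 0.236 uninduced and 0.194, 0.244 and 0.195 induced. Over the 79 flank nucleotides it was 0.417 uninduced and 0.440, 0.406 and 0.385 induced, and over the 56 nucleotides farther away 0.468 uninduced and 0.419, 0.448 and 0.401 induced. The last set holds A63, without which its relative change turned from -0.151 to 0.0389. Among YGCY nucleotides 9 were lower and 13 higher in every induced profile, beside 27.5% and 37.6% of amplicon nucleotides.

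Within the motif, the cytidine was the least reactive position in all 4 profiles, and the first pyrimidine the most reactive in all but induced profile 3. The first pyrimidine had means of 0.399 uninduced and 0.334, 0.287 and 0.241 induced. The guanosine had 0.287 uninduced and 0.221, 0.259 and 0.275 induced. The cytidine had 0.105 uninduced and 0.0523, 0.208 and 0.0930 induced, and the last pyrimidine 0.164 uninduced and 0.203, 0.222 and 0.159 induced. Cytidines outside YGCY were also low, at 0.134 uninduced and 0.159 ± 0.0245 (SD, n = 3) induced. Guanosines outside YGCY had 0.446 uninduced and 0.452, 0.408 and 0.455 induced, above the guanosines of the sites in every profile. Across the intron adenosine was the most and cytidine the least reactive base in all profiles, with adenosine at 0.832 uninduced and 0.695 ± 0.0619 induced. Without A63 the relative change of adenosine was -0.0532 in place of -0.393. Cytidine had 0.144 uninduced and 0.165 ± 0.0328 induced. In the exon and downstream intron cytidine had 0.250 uninduced and 0.255 ± 0.00225 induced, and guanosine 0.686 and 0.743 ± 0.0545, where the upstream intron's guanosine had 0.391 and 0.374 ± 0.0181.

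The folding model also paired the sites nearest the exon with the downstream intron. Pairs with a probability over 0.5 in every profile numbered 27 with at least 1 partner in the upstream intron. Apart from the hairpin, 6 lay in nt 3 to 19, where no reactivity was measured, and 9 joined nt 22 to 30 to nt 443 to 451. In those 9 pairs only 5 nucleotides, nt 26 to 30, were measured, because values end at nt 436. The other 8 joined nt 188 to 196 to nt 278 to 287 across the exon. The last helix takes in G189 and G193 and had mean probabilities of 0.798 uninduced and 0.696, 0.792 and 0.556 induced, but 0.00271 for the sequence alone. Its measured nucleotides had means of 0.275 uninduced and 0.245, 0.237 and 0.257 induced. These means span a wide range. C194 stayed below 0 in all 4 profiles, while A287 had 0.768 uninduced and 1.20, 0.803 and 0.936 induced. G284 had 0.994 uninduced and 0.637, 0.333 and 0.583 induced, and G189 had 0.987 uninduced. The number of pairs fell to 3 with a slope of 2.6 and an intercept of -0.8, fewer than the 8 of this helix. With the span limit it fell to 9. The mean pairing probability of YGCY nucleotides was 0.644 uninduced and 0.655, 0.625 and 0.700 induced, with the uninduced value inside the induced range. The other intron nucleotides had 0.422 uninduced and 0.445, 0.461 and 0.445 induced.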

How the data were processed

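Reactivities and their standard errors are used as the authors deposited them, as a score per nucleotide, with -999 for no value. The tool, the normalization, the background subtraction and the read depth are not stated in these sources. Per the submitters' processing notes the build is mm10. The sequence matched GRCm38 at chr3:60614481-60614939 exactly. Samples were grouped by their titles. Profiles were divided by their own mean, taken with values clipped at the 5th and 95th percentiles, and fitted with limma 3.58.1 in R 4.3.3 (eBayes with a trend, Benjamini-Hochberg over 407 nt, threshold 0.05), with the lone uninduced profile assumed to vary as the induced ones do. Feature means were not tested. Folding used ViennaRNA 2.7.2 on the whole amplicon with Deigan pseudo-energies (slope 1.8, intercept -0.6), negative values adding no energy. No 2 profiles shared an identical value.

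Nucleotides were named by rule: those past the threshold, the 10 highest induced means, the 5 largest rises and falls outside the induced values, every motif site and low run, and the splice-site AG; others were named after their values were seen. The members and lists were chosen with earlier results of these data known. Alternatives covered scaling, negative values, the log2 scale, the trend, noisy and end nucleotides, replicates, windows, cutoffs and folding.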

Additional observations from a re-analysis of the deposited data

How the results depend on the processing

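Counts of called nucleotides changed with the setting. In limma, 1 intron nucleotide passed with all profiles, 4 with rank-based scores, and 0 with negative values set to 0, on the log2 scale, without the variance trend and without nt 63 (unadjusted p under 0.05 at 23, 26, 21 and 18 nt, respectively). Leaving out 1 induced replicate gave 0 to 3 called nucleotides (16 to 38 at an unadjusted p under 0.05): 3 without replicate 1, 0 without replicate 2 and 1 without replicate 3. For windows, 2 passed at 10 nt, 6 at 5 nt, 1 at 25 nt, 1 with deposited values and 0 without nt 63 (3 at an unadjusted p under 0.05), and 1 to 3 with a replicate left out.

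The intron's relative change was -0.0523 with deposited values, -0.0608 after division by the median and -0.0329 without nt 63. The sign turned for nucleotides with small changes: with a replicate left out, changes ran from -0.00540 to 0.184 at A89, -0.193 to 1.07 at U138, -0.522 to 0.144 at A146, -0.288 to 0.114 at U199 (0.000777 with deposited values) and -0.325 to 0.407 at A200. With cutoffs of 0.3 and 1.0, 1 low run was left.

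Modelled pairs numbered 3 with slope 2.6 and intercept -0.8, 9 with the span limit, 4 with the upstream intron folded alone and 64 for the sequence alone. The lowest hairpin probability over the profiles was 0.831, 0.0576, 0.661 and 0.296 in those settings, and the change at YGCY was 0.0703 with slope 2.6. Leaving out nt 63 and counting negative reactivities as 0 in the folding were chosen after seeing the data. All 11 measured single YGCY sites moved by less than 1 SD with deposited values, division by the median and negative values set to 0. Leaving out nt 63 or the end nucleotides changed no value of the sites that stayed measured. Leaving out 1 of 3 replicates cannot move their mean by 1 SD, so these settings were no check. The log2, rank, trend and noisy-nucleotide settings were not applied to sites. No paired analysis was possible because only 1 uninduced profile was analysed. Without read depth, counting error could not be set beside these values.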
